A study of Homo sapiens with 4 samples.

Results

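The miR-26 family was measured at 3 loci, MIR26A1, MIR26A2 and MIR26B, each of which lies in an intron of a gene for a small phosphatase of the Pol II C-terminal domain (CTD). The loci were found by gene symbol, read from the Ensembl identifier of each feature, and they are 3 of the 7062 small RNA features and of the 1860 miRNA features in the deposited tables. All 3 were detected in every library and entered the test, in which 1480 features were compared.

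Small RNAs were sequenced from HEK293T cells, a human embryonic kidney line that carries the SV40 large T antigen, after transient transfection with a plasmid for RPB1, the largest Pol II subunit. The comparison was between a CTD of 52 heptad repeats with alanine in place of the threonine at the fourth position of the heptad (52X T4A) and a CTD of 52 wild-type repeats (52X WT), and it addressed how the loss of that threonine bears on small RNA levels. Cells of both groups received 1.5 μg of plasmid per well and were then held for 72 h in 2.5 μg/ml α-amanitin, a toxin directed at the endogenous enzyme, so plasmid and toxin were common to all 4 libraries. Each group had 2 libraries, described as biological replicates, with no statement of whether they came from separate cultures, so the p-values below measure the spread between these libraries only. The selected cells are a transiently transfected pool and not a clone, and untransfected HEK293T cells were not analysed here.

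A miRNA is cut from a hairpin precursor by Drosha and Dicer, and the mature strand guides Argonaute to mRNAs that pair with its seed, the stretch of bases 2 to 8. miR-26 is a vertebrate family known for restraint of cell-cycle entry and for repression of EZH2, the methyltransferase of Polycomb complexes. Its host genes CTDSPL, CTDSP2 and CTDSP1 encode phosphatases that remove phosphate from serines of the Pol II CTD, and that are also known to hold neuronal genes silent in non-neuronal cells with REST. The hosts are transcribed by Pol II together with the intronic hairpins. The host mRNAs were not analysed here, because small RNA libraries do not measure them.

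The mature sequences are shown first, because they decide which of the loci can be told apart by a read. They were taken from RefSeq (GRCh38.p14), which held all 3 loci, and are given 5′ to 3′ with the seed in capitals.
miR-26a-5p: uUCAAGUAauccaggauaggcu
miR-26b-5p: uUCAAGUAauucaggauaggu
miR-1297: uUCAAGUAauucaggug
miR-4465: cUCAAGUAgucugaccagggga
All 4 share 1 seed. miR-26a-5p and miR-26b-5p, counted from the 5′ end, differed by the substitutions C11U and C21U (miR-26a base first), and their first 10 bases were identical. miR-1297 matched miR-26b-5p over its first 15 bases and then departed by A16U and U17G.

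MIR26A1 and MIR26A2 give the same miR-26a-5p from hairpins that are otherwise different, which is why the hairpins are printed next. The 5p arm is in capitals.
MIR26A1: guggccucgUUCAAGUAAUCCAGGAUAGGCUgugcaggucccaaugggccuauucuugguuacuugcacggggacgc
MIR26A2: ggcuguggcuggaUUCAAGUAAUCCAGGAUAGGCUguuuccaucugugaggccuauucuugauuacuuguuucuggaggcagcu
MIR26B: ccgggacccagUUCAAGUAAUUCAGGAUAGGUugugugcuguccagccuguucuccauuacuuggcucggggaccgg
The MIR26A1 and MIR26A2 hairpins were identical at 60 of 86 aligned columns (69.8%), MIR26A1 and MIR26B at 56 of 81 (69.1%), and MIR26A2 and MIR26B at 54 of 84 (64.3%). Among 1562 hairpins, the whole miR-26a-5p sequence was found in 2 and that of miR-26b-5p in 1.

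The opposite arms do separate the miR-26a loci, and they are shown for that reason, again with bases 2 to 8 in capitals.
miR-26a-1-3p: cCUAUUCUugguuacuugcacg
miR-26a-2-3p: cCUAUUCUugauuacuuguuuc
miR-26b-3p: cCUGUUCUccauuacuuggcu
The miR-26a-1-3p and miR-26a-2-3p sequences differed by G11A, C19U, A20U, C21U and G22C, and each was found in 1 hairpin only. The deposited counts are per gene, so the arms could not be separated.

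MIR26A1 (ENSG00000199075.1) lies at chr3:37969404-37969480 on the plus strand of GRCh38, in intron 5 of 7 of the canonical transcript of CTDSPL, 107.524 kb from the start of a gene of 122.59 kb. MIR26A2 (ENSG00000207789.1) lies at chr12:57824609-57824692 on the minus strand, also in intron 5 of 7, in CTDSP2, 22.037 kb from the start of a 26.803 kb gene. MIR26B (ENSG00000199121.4) lies at chr2:218402646-218402722 on the plus strand, in intron 4 of 6 of CTDSP1, 6.295 kb from the start of a 9.591 kb gene. Each locus has the strand of its host. The hosts thus differed in length by more than the hairpins, of which MIR26A1 and MIR26B have 77 bases and MIR26A2 has 84.

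Library totals ranged from 16180790 to 27370127 counts, and miRNA features took 70.9% and 75.3% of the counts in 52X T4A but 63.5% and 73.4% in 52X WT. The 52X WT libraries differed more from each other than the 52X T4A libraries did, with SDs of the log2 ratio between replicates of 0.631 and 0.375 over 755 features, and 52X WT replicate 1 had the lowest miRNA share. All 11 miRNAs fixed as markers of HEK293T cells were present in every library. Their lowest value was 40.4 CPM (a library's counts rescaled to a common total, with TMM factors), at MIR19B1. Of 15 miRNAs that mark liver, muscle, blood or neurons, 9 stayed under 2 CPM in every library, among them MIR122, the liver miRNA. The highest value among the 9 was 1.90 CPM, at MIR206. Of these 9, the muscle loci MIR133A1 and MIR133A2 and the blood loci MIR142 and MIR150 entered the test. They were higher in both 52X T4A libraries, at only 2 to 42 counts, and none was called. The log2 differences were 2.36 for MIR133A1, 2.10 for MIR133A2, 1.73 for MIR150 and 0.73 for MIR142. Their unadjusted edgeR p-values were 0.0040, 0.0066, 0.012 and 0.24. MIR133A1 and MIR133A2 held near-equal counts. The rest of the 15 were the muscle loci MIR1-1 and MIR1-2, the erythroid MIR486-1 (29.4 to 60.7 CPM) and the 3 neuronal MIR124 loci (1.45 to 4.18 CPM). MIR1-1 was at 46.6 and 39.9 CPM in 52X T4A against 15.1 and 16.4 CPM in 52X WT (log2 difference 1.46, edgeR FDR 0.186), and MIR486-1 was the lower in 52X T4A, at 29.4 and 39.9 against 60.7 and 48.2 CPM. Summed over the 15 markers, the 52X T4A libraries had 132 and 134 CPM where the 52X WT libraries had 90.4 and 105. This sum enters copies of near-equal counts more than once. In 52X T4A replicate 1, MIR1-1 and MIR1-2 had 738 and 740 counts, and the 3 MIR124 loci had 23 each. The sum therefore overstates the MIR1 part of the difference between the groups. The part of this difference in the results below was not tested. Levels are relative to the other small RNAs of a library, and in bulk RNA a change in the mix of cells and a change per cell cannot be told apart.

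MIR26A1 and MIR26A2 held nearly the same counts. In 52X T4A replicates 1 and 2, MIR26A1 had 25585 and 50885 counts and MIR26A2 had 25598 and 50967. In 52X WT replicates 1 and 2, MIR26A1 had 19325 and 25540 counts and MIR26A2 had 19344 and 25571. MIR26A2 thus exceeded MIR26A1 by 13, 82, 19 and 31 counts, or by 0.0508% to 0.161%, whereas their 3p arms and flanks differ. The CTDSPL and CTDSP2 loci could not be told apart in these tables, and from here on they are counted once, as MIR26A1. How reads that match several loci were counted is not given in the sources used here.

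miR-26a was the more abundant member, and both members had slightly higher levels in 52X T4A libraries without passing the test. MIR26A1 reached 1616 and 1612 CPM in replicates 1 and 2 of 52X T4A, against 1324 and 1357 CPM in those of 52X WT. Both 52X T4A libraries lay above both 52X WT libraries. The closeness of the 52X T4A values rested on the TMM factors, since by library size alone they were 1581 and 1859 CPM, against 1193 and 1333 CPM in 52X WT. Means were 1614 ± 3.42 CPM for 52X T4A against 1341 ± 22.9 CPM for 52X WT (SD, n = 2 each), a ratio of 1.20 (95% interval 0.885 to 1.64). On the log2 scale the fitted difference was 0.27 ± 0.198 (SE), with an edgeR quasi-likelihood FDR of 0.590. The interval, which uses a spread shared over all features, included no change and a rise of more than 1.5-fold, so neither was separable with 2 libraries a group.

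MIR26B, the CTDSP1 locus, was less even. Its counts were 7094 and 17643 in 52X T4A and 6325 and 8074 in 52X WT, which made 448 and 559 CPM in 52X T4A against 433 and 429 CPM in 52X WT. The excess of 52X T4A came mostly from replicate 2, since replicate 1 lay close to both 52X WT libraries, although the groups did not overlap. The mean was 503 ± 78.2 CPM against 431 ± 3.22 CPM (SD, n = 2 each), a ratio of 1.17 (95% interval 0.817 to 1.67). The log2 difference was 0.22 ± 0.229 (SE), with an edgeR FDR of 0.726. Without 52X T4A replicate 2 it was 0.07, and without 52X WT replicate 1 it was 0.14. For MIR26A1 the value without 52X WT replicate 1 was 0.16.

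**Figure D1:**
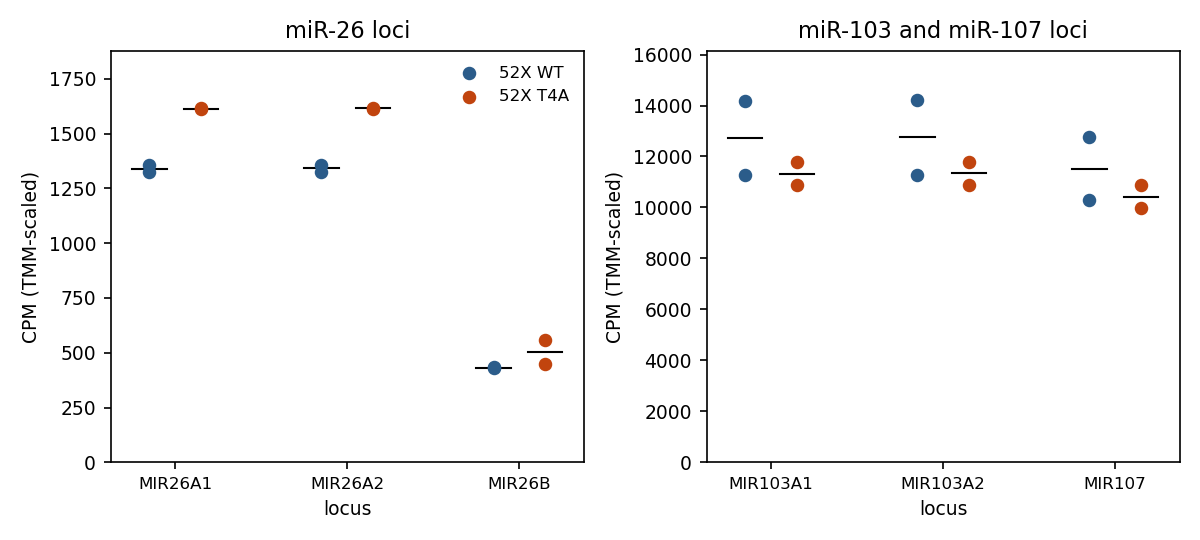
Level in CPM (TMM-scaled) of the miR-26 loci (left) and of the miR-103 and miR-107 loci (right), where each point is a library (52X WT blue, 52X T4A orange) and each line a group mean. MIR26A1 and MIR26A2 plot alike, at 1612 to 1617 CPM in 52X T4A against 1324 to 1358 CPM in 52X WT, MIR26B spreads in 52X T4A from 448 to 559 CPM, and the groups overlap in the right panel.

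None of the 3 loci was called at an FDR below 0.05 with a fold change above 1.5, against 2 features called among the 1480 tested, or 0.135%. At an unadjusted p below 0.05, 152 features passed in all, 59 of them higher in 52X T4A (3.99%), and none of the 3 miR-26 loci was among them. In all 3 loci every 52X T4A library exceeded every 52X WT library, but this held for 280 of all features tested, or 18.9%, and the miR-26a pair counts as 1 observation. The median log2 difference over all features was -0.05, so that MIR26A1 lay 0.31 and MIR26B 0.27 above it. Of the tested miRNA features, which numbered 619 with the miR-26 loci, 177 outside the family had a higher log2 difference than MIR26A1 and 196 a higher one than MIR26B. miR-26 therefore stood in the upper part of the distribution, but not at its edge.

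**Figure D2:**
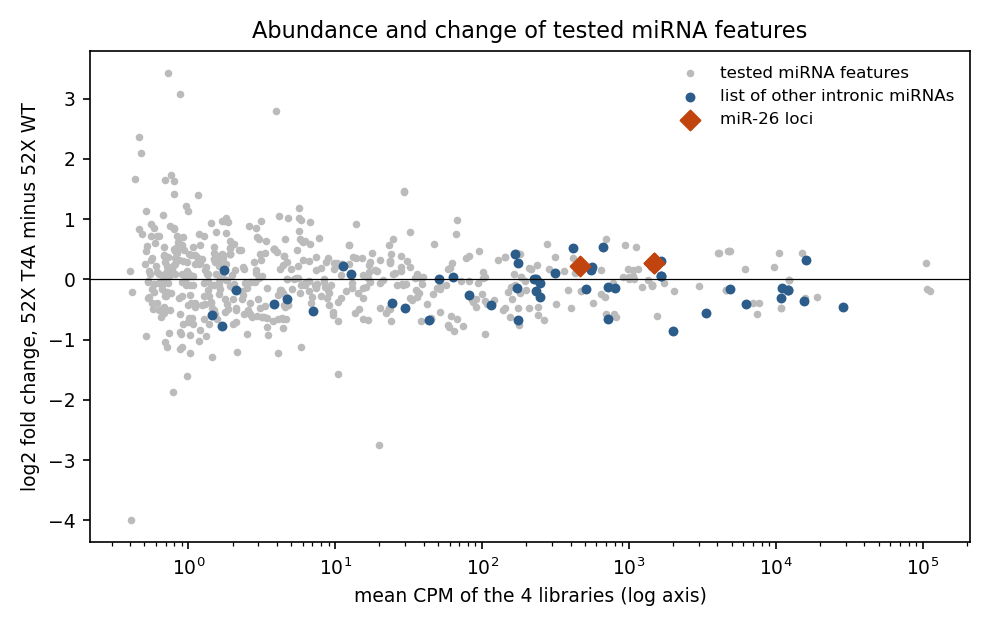
Log2 difference between 52X T4A and 52X WT against mean level (CPM, log axis) for the tested miRNA features in grey, with miR-26 loci as orange diamonds and the fixed list of other intronic miRNAs in blue. The miR-26 loci sit at 0.22 to 0.27, among many grey points of equal or larger size.

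By rank, MIR26A1 was the 45th and 42nd most abundant miRNA feature in 52X T4A replicates 1 and 2, and the 48th and 52nd in 52X WT replicates 1 and 2. MIR26B held ranks 85, 78, 84 and 84 in the same order. The order within the family did not change, as MIR26A1 exceeded MIR26B in 4 of 4 libraries. The MIR26A1 count may hold reads of both miR-26a loci, so this is not a comparison of single loci. With the miR-26a pair counted once, miR-26 made up 0.285% and 0.333% of miRNA counts in 52X T4A and 0.249% and 0.239% in 52X WT. The total of miRNA counts still held MIR26A2 and other loci of near-equal counts, so these shares of counts need not equal shares of reads. The ranks count such copies separately too. The 52X T4A libraries were the higher ones. The group means were 0.309% ± 0.0336 and 0.244% ± 0.00726 (SD, n = 2 each), a difference of 0.0645 percentage points, with a two-sided exact permutation p of 0.333, the smallest that 2 against 2 libraries allow. The difference was 0.0407 points without 52X T4A replicate 2, and 0.115 points when MIR26A1, MIR26A2 and MIR26B were summed, which counts the shared reads at both miR-26a loci.

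The balance between miR-26a and miR-26b was compared within each library, where scaling has no part. MIR26B had 27.7 and 34.7 counts per 100 of MIR26A1 in 52X T4A replicates 1 and 2, and 32.7 and 31.6 in 52X WT replicates 1 and 2. The 52X T4A values lay on either side of the 52X WT values. As a share of miR-26, MIR26B took 21.7% (95% Wilson interval 21.3 to 22.2) and 25.7% (25.4 to 26.1) in 52X T4A. It took 24.7% (24.1 to 25.2) and 24.0% (23.6 to 24.5) in 52X WT, and these intervals cover counting error only. The 2 libraries of 52X T4A were further apart than their counting error. The log2 ratio of MIR26B to MIR26A1 averaged -1.69 ± 0.228 for 52X T4A against -1.64 ± 0.0354 for 52X WT (SD, n = 2 each), a difference of -0.05 with an exact permutation p of 1, and its sign turned when 52X T4A replicate 1 was left out (0.11). The smallest p that this test allows is 0.333, so it could not have detected a shift between the CTDSP1 product and the CTDSPL and CTDSP2 products.

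**Figure D3:**
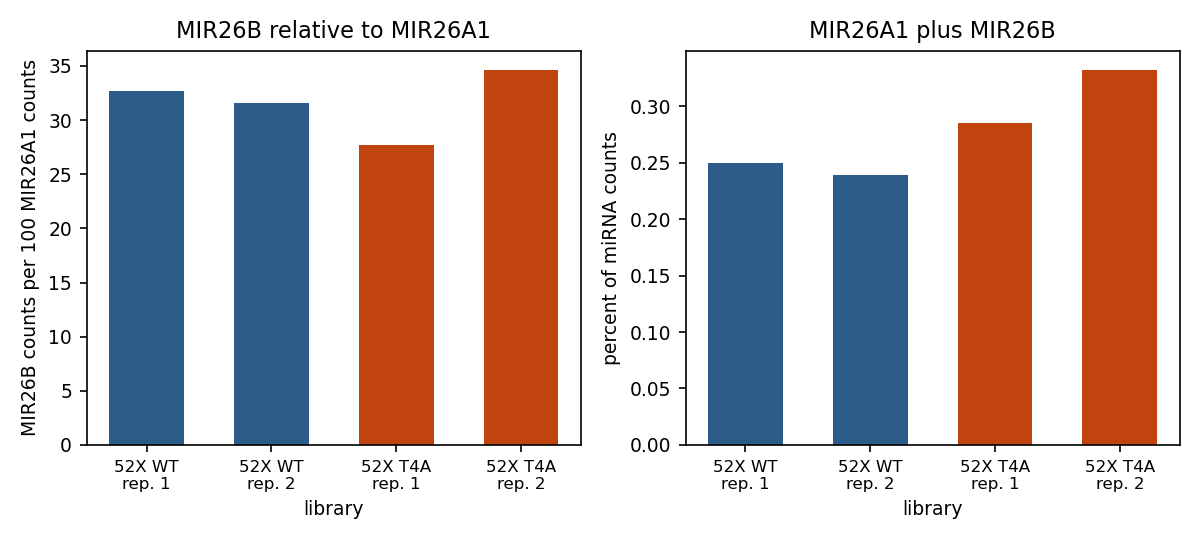
MIR26B relative to MIR26A1, and miR-26 as a percent of miRNA counts, in each of the 4 libraries (52X WT blue, 52X T4A orange). The ratio of 52X T4A brackets that of 52X WT, at 27.7 and 34.7 against 31.6 and 32.7 per 100, while the miR-26 share is 0.285% and 0.333% against 0.239% and 0.249%.

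The other loci with the miR-26 seed were nearly silent. MIR1297 (chr13:54311972-54312048, minus strand) had 0 counts in every library, where 3 counts, the limit that a count of 0 allows, would be 0.0950 to 0.206 CPM. MIR4465 (chr6:140683814-140683883, plus strand) had a single count, in 52X WT replicate 2. miR-26a and miR-26b thus supplied nearly all counts with this seed.

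A similar arrangement is that of miR-103 and miR-107, a family whose 3 loci lie in introns of the pantothenate kinase genes PANK3, PANK2 and PANK1, enzymes at the entry to coenzyme A synthesis. MIR103A1 was at 11792 and 10865 CPM in 52X T4A and at 14196 and 11276 CPM in 52X WT. MIR107 was at 10868 and 9979 CPM in 52X T4A and at 12775 and 10279 CPM in 52X WT. The groups overlapped in both. The log2 difference was -0.17 ± 0.198 for MIR103A1 and -0.15 ± 0.197 for MIR107 (SE), with edgeR FDRs of 0.768 and 0.814. MIR103A2 exceeded MIR103A1 by only 0.0445% to 0.109% of its counts, so these 2 loci could not be told apart either, and miR-107 differs from miR-103a-3p by G22C alone.

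Both families carried paired loci of equal mature sequence. The sign of the log2 differences of MIR103A1 and MIR107 depended on the scaling, as they were 0.01 and 0.04 with library size alone, where MIR26A1 was at 0.45. The ratio between the families within a library does not depend on it. Per 100 counts of MIR103A1, MIR26A1 had 13.7 and 14.8 in 52X T4A and 9.33 and 12.0 in 52X WT. The 52X T4A ratios were the higher ones in each case. The log2 ratio of MIR26A1 to MIR103A1 averaged -2.81 ± 0.0804 over 52X T4A libraries and -3.24 ± 0.26 over 52X WT libraries (SD, n = 2 each). The difference was 0.43 with an exact permutation p of 0.333, the smallest possible here. Leaving out replicate 1 of 52X WT made it 0.25, and leaving out replicate 2 of 52X WT made it 0.61.

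Other miRNAs that lie in introns of protein-coding genes formed a list of 50, of which the annotation placed 46 in an intron on the host's strand and 48 were tested. None was called, 2 were higher and 4 lower in 52X T4A at an unadjusted p below 0.05 (3.99% and 6.28% of all features), and the smallest edgeR FDR was 0.201. The median log2 difference of the list was -0.16, beside -0.05 over all features, and the range was -0.86 to 0.54. Every 52X T4A library exceeded every 52X WT library in 7 of the 48 (14.6%), beside 18.9% of all features. The reverse held in 17 of the 48, a larger share than the 21.2% of all features. That pool holds other small RNA classes. Among tested miRNA features the reverse held in 167 of 619. It held in 70 of the 241 that the annotation placed in introns, without the miR-26 loci. The 17 of the list include MIR25, MIR93 and MIR106B, which share the host gene MCM7, and the list also holds the near-equal MIR103A1 and MIR103A2. Such loci are not independent observations. Of the 48, 5 had a log2 difference at least that of MIR26A1, namely MIR191, MIR152, MIR342, MIR378A and MIR140. With upper-quartile scaling the list median was 0.01 and the median of all features was 0.13, and with library size alone the values were 0.03 and 0.14, so the sign of the list median depended on the scaling while it lay below the median of all features in each of these cases.

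Among the 3 most abundant members of that list, MIR378A, from the coactivator gene PPARGC1B, had the direction of MIR26A1 but less even replicates. It was at 19822 and 16084 CPM in 52X T4A against 13595 and 15007 CPM in 52X WT, with a log2 difference of 0.33 ± 0.195 (SE, edgeR FDR 0.521). MIR25, from the replicative helicase gene MCM7, and MIR30E, from the transcription factor gene NFYC, were lower in both 52X T4A libraries, with log2 differences of -0.45 ± 0.213 and -0.36 ± 0.187 (SE) and an edgeR FDR of 0.467 for each. At the ends of the list, MIR191 (DALRD3) stood at 0.54 ± 0.228 and MIR101-2 (RCL1) at -0.86 ± 0.233 (SE), with edgeR FDRs of 0.460 and 0.201. MIR101-2 was called under 4 of 14 alternatives, namely with no filter on low counts, with the replicate number as a block, and with either 52X WT library left out. The 3 miR-26 loci therefore lay inside the range of intronic miRNAs. By annotation, 241 other tested miRNA features lie in an intron on the strand of their host, and these had a median log2 difference of -0.07 with 106 above 0.

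**Figure D4:**
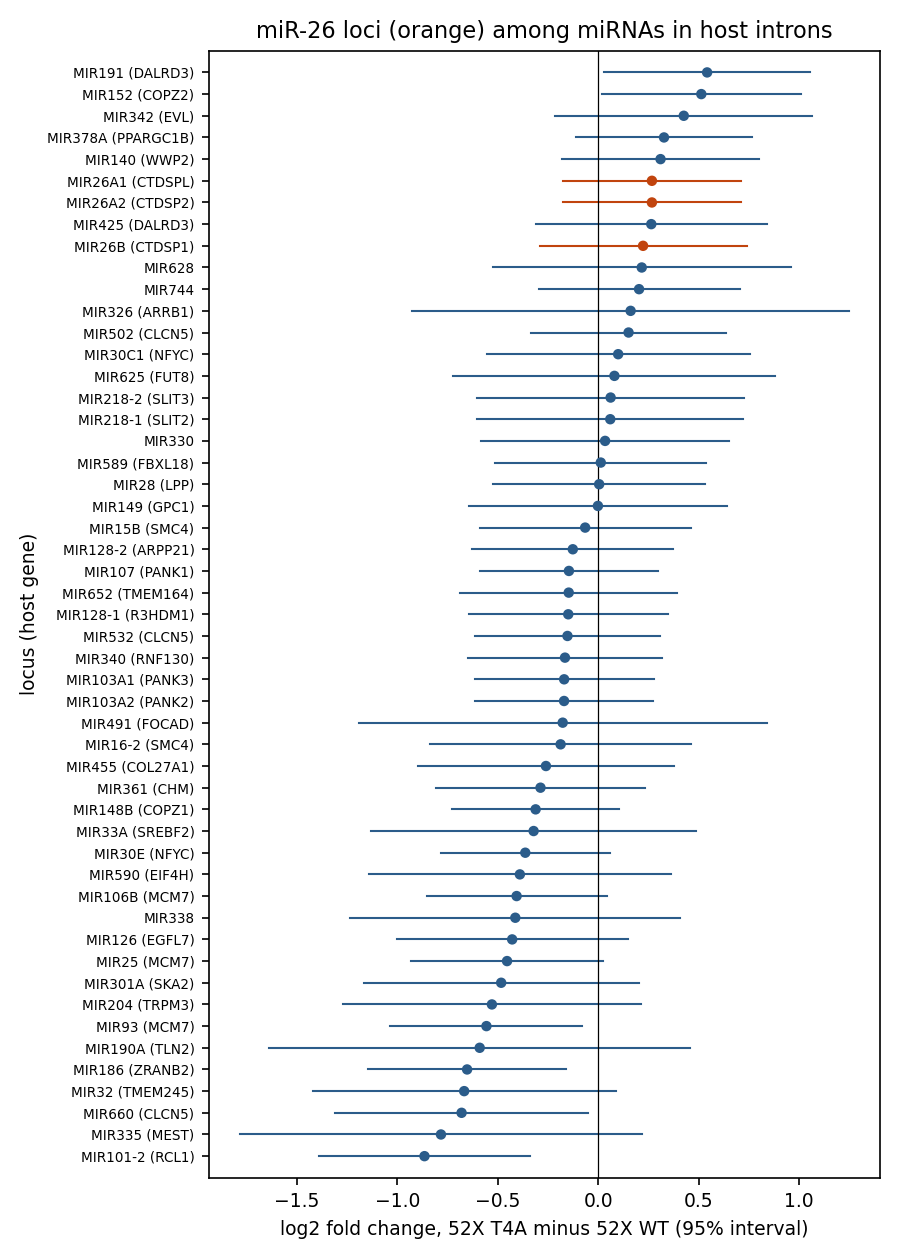
Log2 difference between 52X T4A and 52X WT, with 95% intervals, of the miR-26 loci and of the listed miRNAs in introns of protein-coding genes, with the host gene in parentheses where the annotation placed the locus in an intron. The listed miRNAs run from -0.86 (MIR101-2) to 0.54 (MIR191), and the intervals of the miR-26 loci include 0.

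The miR-26 family is often set beside other miRNAs that restrain entry to S phase or repress EZH2, and 24 such loci were listed, of which 23 were tested. The list shared 3 loci with that of the intronic miRNAs. One was called, MIR34C, a p53-induced miRNA, at 5.12 and 5.16 CPM in 52X T4A against 39.7 and 29.1 CPM in 52X WT. Its log2 difference was -2.74 ± 0.343 (SE, edgeR FDR 0.0258), and the call was lost when scaling factors came from miRNAs alone (FDR 0.0562). Over all features 0.135% were called. The let-7a loci MIRLET7A1, MIRLET7A3 and MIRLET7A2 were the most abundant of the list and were not called, at log2 differences of 0.47 (edgeR FDR 0.467 for each). The list median was -0.06, with 11 of 23 above 0, and 6 loci were higher and 3 lower at an unadjusted p below 0.05, beside 3.99% and 6.28% of all features. The 6 were all let-7 loci, among them the let-7a loci of near-equal counts (96512, 96323 and 94539 in 52X T4A replicate 1), and the 3 were MIR34C and the pair MIR101-1 and MIR101-2, with 26228 and 26303 counts in that library. Such copies are not independent observations, as for miR-26a. The list lay on both sides of miR-26.

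Features whose pattern over the 4 libraries was nearest to that of miR-26 were found by the Euclidean distance of centred log2 CPM, among 752 features that averaged 100 counts or more. Nearest to MIR26A1 were MIR3691, the box C/D small nucleolar RNA SNORD14E, the small Cajal body RNAs SCARNA15 and SCARNA12, and MIR378D2, at distances of 0.0945 to 0.141 against a median of 0.617. Nearest to MIR26B was SNORD33, at 0.0264, followed by MIR99B, MIR193B, a Y_RNA copy and MIR503 at 0.131 to 0.154, against a median of 0.656. No feature was nearest to both members. These distances are a description over 4 libraries.

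**Figure D5:**
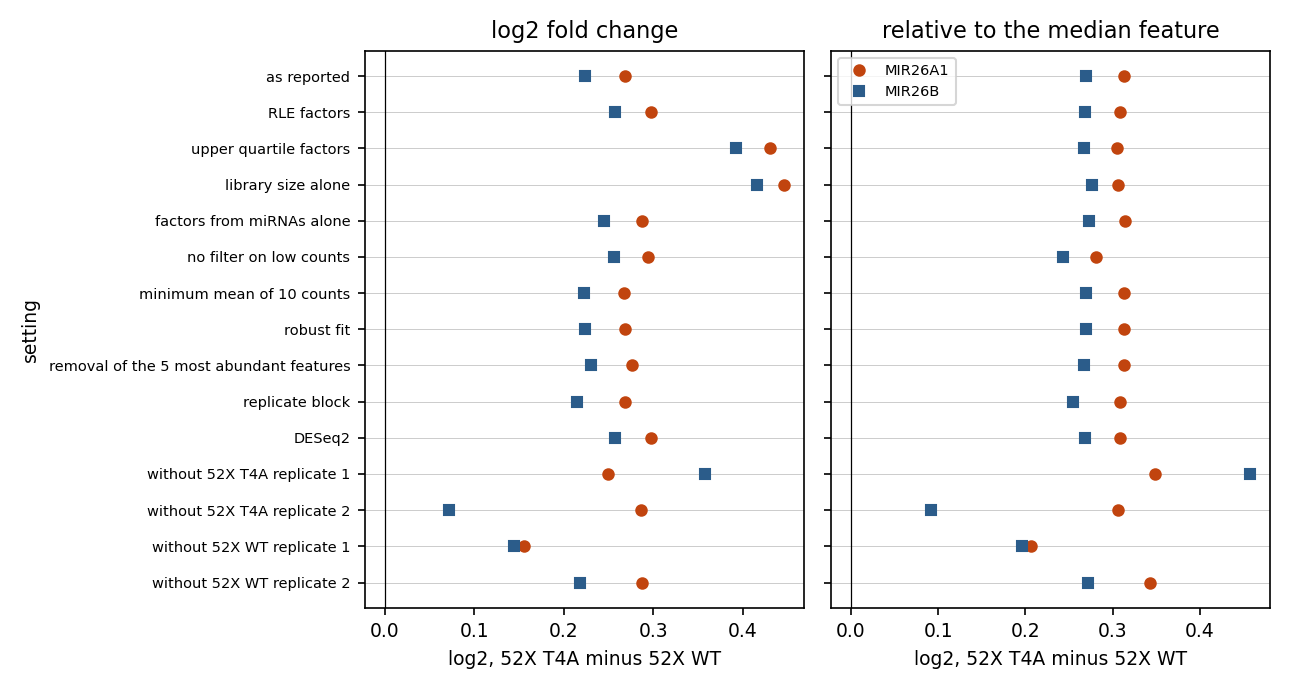
Log2 difference of MIR26A1 (orange circles) and MIR26B (blue squares) under each processing alternative, as fitted (left) and after subtraction of the median of all features (right). On the left MIR26A1 ranges from 0.16 to 0.45 and MIR26B from 0.07 to 0.42, and each stays above 0.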

How the data were processed

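Small RNA libraries of 2 groups (52X T4A and 52X WT, 2 each) were analysed from the per-gene read counts that the authors deposited, with no normalization applied. The submitters' processing notes name cutadapt 4.6, Bowtie2 2.3.5.1, featureCounts 1.5.0 and hg38. The strand setting and the treatment of multiply matching reads are not given in the sources used here. Names came from GENCODE v44lift37 by Ensembl identifier (5579 features) or from an identical RefSeq GRCh38.p14 position (899), and 584 features kept their identifiers. Intron numbers are those of the GENCODE canonical transcripts.

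Counts were filtered with filterByExpr (minimum count 10), scaled by TMM and fitted by group with the quasi-likelihood test of edgeR 4.0.16 (limma 3.58.1, R 4.3.3). Features with a Benjamini-Hochberg FDR below 0.05 and a fold change above 1.5 were called. Intervals are 95% intervals of the fit. Ratios within libraries were compared with exact two-sided permutation tests (SciPy 1.17.1). The biological coefficient of variation was 26.0%. Alternatives were other scalings, filters, DESeq2 1.42.0, a replicate block and each library left out. For each list the highest 3 by mean CPM were named, with the features at its ends added after their values were seen. The members and lists were chosen with earlier results of these data known.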

Additional observations from a re-analysis of the deposited data

How the results depend on the processing

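Under all 14 alternatives, MIR26A1 and MIR26B kept their direction and stayed short of the threshold. MIR26A2 nearly repeated the values of MIR26A1 and adds no separate evidence. The log2 difference of MIR26A1 ranged from 0.16 to 0.45 and that of MIR26B from 0.07 to 0.42, with leave-one-out ranges of 0.16 to 0.29 and 0.07 to 0.36. Scaling moved all features together: their median was -0.05 as reported, 0.13 with upper-quartile scaling and 0.14 with library size alone, and relative to that median MIR26A1 lay 0.28 to 0.31 and MIR26B 0.24 to 0.28 higher over the alternatives with all 4 libraries, and 0.21 to 0.35 and 0.09 to 0.46 higher when 1 library was left out. With the replicate number as a block, MIR26A1 was at 0.27 (edgeR FDR 0.661), MIR26B at 0.22 (0.824) and the log2 ratio of MIR26B to MIR26A1 at -0.05. The deviations of same-numbered libraries correlated at 0.0946. The labels do not say whether such libraries shared a day or culture, and this correlation cannot settle it. The number of features called moved from 2 to 9 with library size alone, 0 with factors from miRNAs only (143 at an unadjusted p below 0.05), 29 with no filter, 18 with the block and 30 with DESeq2. It ranged from 4 to 218 when 1 library was left out, where the lone library is assumed to vary like the others (35 without 52X WT replicate 1, 218 without 52X WT replicate 2), and the cause was not tested. The log2 ratio of MIR26B to MIR26A1 reversed to 0.11 without 52X T4A replicate 1 (range -0.21 to 0.11). With upper-quartile scaling and with library size alone, the log2 difference turned to 0.0024 and 0.012 for MIR103A1, to 0.0020 and 0.012 for MIR103A2, and to 0.026 and 0.035 for MIR107. Among the alternatives with all 4 libraries, MIR34C lost its call only with factors from miRNAs alone. MIR101-2 gained a call with no filter and with the block, where calls over all features rose as well. These values of named miRNAs and of the ratio to MIR103A1 were added after seeing the data. The median of the intronic list was 0.01 with upper-quartile scaling and 0.03 with library size alone. With 2 libraries a group and an SE near 0.2 on the log2 scale, differences of the size seen at miR-26 could not be resolved.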
